A study of Mus musculus with 6 samples.

Results

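The cell cycle inhibitors and D cyclins of lung endothelial cells (ECs) were described in sham-operated mice and in mice 7 days after pneumonectomy (PNX), the surgical removal of lung tissue after which the remaining lung grows. The set was 10 genes, taken by their symbols from the 24063 gene symbols in the files. The rule used no measured value, but the set was chosen with earlier results of these data known. It comprised 7 CDK inhibitors (Cdkn1a, Cdkn1b, Cdkn1c, Cdkn2a, Cdkn2b, Cdkn2c and Cdkn2d) and 3 D cyclins (Ccnd1, Ccnd2 and Ccnd3). All 10 were counted in every library and passed the filter on low counts, so each was tested.

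The samples were bulk RNAseq libraries of C57BL6 mouse lung ECs, 3 of the sham group and 3 of the group taken 7 days after PNX, and every library was a pool of 2 mice. The ECs had been pulled from digested lung with beads against CD31, a surface protein that platelets and some leukocytes also carry. The labels name no engineered allele and no further agent in either group and give males at 8 weeks of age, whereas the study's methods give 12–15 weeks for the surgery. In both groups the labels tag replicates 1 and 2 as re-used, that is, as copies of an older record, and give replicate 3 no such tag.

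D cyclins are made when growth factors reach a resting cell, and they bind and activate CDK4 and CDK6, which phosphorylate the retinoblastoma (Rb) proteins and so release the genes of DNA replication. INK4 inhibitors (p15, p16, p18 and p19, the products of Cdkn2b, Cdkn2a, Cdkn2c and Cdkn2d) bind CDK4 and CDK6 and keep D cyclins from activating them. CIP/KIP inhibitors (p21, p27 and p57, the products of Cdkn1a, Cdkn1b and Cdkn1c) act mainly on complexes of CDK2 with cyclin E or A, and also help to assemble cyclin D with CDK4. Most ECs of the adult lung are at rest, and they divide when the lung is injured or grows.

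The promoter windows of 3 inhibitors are shown first, since Cdkn2c was the member with the largest difference and Cdkn1b and Cdkn2b were the members that were lower after PNX in the paired test described below. RefSeq sequence (GRCm38.p6) was at hand for 7 of the 10 members, and Cdkn1c, Ccnd1 and Ccnd2 are not shown. Each window holds bases before a RefSeq start site, 5′ to 3′ on the gene's strand, without bases of annotated exons. Capitals mark a CCAAT word, a GC box (GGGCGG) or a cell cycle homology region (CHR, TTTGAA or TTCGAA), on either strand. The Cdkn2c window, chr4:109665373-109665609 on the minus strand, lies just before the start of the 2-exon transcript and within the first intron of the 3-exon transcript. The Cdkn1b window is chr6:134920151-134920400 on the plus strand, and the Cdkn2b window is chr4:89311040-89311282 on the minus strand.
Cdkn2c: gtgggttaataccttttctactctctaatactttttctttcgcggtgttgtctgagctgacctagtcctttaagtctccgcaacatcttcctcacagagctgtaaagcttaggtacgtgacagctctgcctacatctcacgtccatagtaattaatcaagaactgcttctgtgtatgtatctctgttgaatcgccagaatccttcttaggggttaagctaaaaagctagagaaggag
Cdkn1b: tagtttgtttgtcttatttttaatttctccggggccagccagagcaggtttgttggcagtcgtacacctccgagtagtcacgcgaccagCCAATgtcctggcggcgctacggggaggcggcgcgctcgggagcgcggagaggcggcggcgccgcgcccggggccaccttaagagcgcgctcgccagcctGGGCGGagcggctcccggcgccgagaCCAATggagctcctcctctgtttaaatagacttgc
Cdkn2b: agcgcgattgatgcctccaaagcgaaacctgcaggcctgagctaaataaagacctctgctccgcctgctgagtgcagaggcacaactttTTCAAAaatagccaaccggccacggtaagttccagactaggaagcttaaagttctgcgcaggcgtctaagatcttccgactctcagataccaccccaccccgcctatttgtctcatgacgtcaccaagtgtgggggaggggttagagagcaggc

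The Cdkn2c window shown, that of the 2-exon transcript, held none of the words searched. A second RefSeq window of the gene, chr4:109666757-109667006, lies just before the gene's upstream RefSeq start site. It held 3 GC boxes. It is not shown because it lies within the first exon that the GENCODE annotation gives the 3-exon transcript. The Cdkn1b window held 2 CCAAT words and 1 GC box, and the Cdkn2b window held 1 CHR. Of all 32851 RefSeq windows of 250 bases, 33.8% held CCAAT, 32.7% the GC box and 17.1% a CHR. Of the 11 windows of the members, 3 held CCAAT, 7 the GC box and 1 a CHR. The E2F words TTTCGCGC, TTTGGCGC, TTTCCCGC and TTTGCCGC were in 1.86% of all windows and in 1 of the 11, that of the upstream start of Cdkn2a. The FOXO word GTAAACA was in 3.17% of all windows and in 1 of the 11, that of the upstream start of Ccnd3. A match of letters is a description and does not show that a factor binds there.

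Replicates 1 and 2 of each group were close to being the same library. The chi-square per degree of freedom over genes, expected at 1 from counting error, was 1.75 between the sham pair and 1.57 between the PNX pair, against 67.9 to 86.4 for the pairs with replicate 3. Replicates 1 and 2 were therefore summed, which left 2 samples per group, and the SDs below are over those 2 samples. Total counts lay between 29526989 and 81282871, with the smallest library of each group in replicate 3. Lists of markers were set beside the members. The 8 endothelial markers summed to 8205 to 10430 CPM (counts scaled to library size by TMM) in sham and 7566 to 8559 in PNX libraries, and the 6 fibroblast markers to 1050 to 1239 and 3345 to 4901. The 7 macrophage markers counted summed to 2302 to 4174 in sham and 2948 to 4104 in PNX, the 5 alveolar type 2 markers to 4882 to 5327 and 1869 to 3103, and the 3 club cell markers to 2397 to 4262 and 1120 to 1158. The 6 mesothelial markers summed to 159.6 to 378.9 in sham and 324.6 to 863.1 in PNX, and the 4 mast cell markers to 3.91 to 5.38 and 12.6 to 24.9. T cell markers (5 counted, 23.1 to 52.1 and 12.4 to 35.5), B cell markers (4, 82.1 to 95.6 and 44.8 to 50.1) and markers of smooth muscle and pericytes (5, 364.8 to 470.8 and 335.7 to 459.2) completed the lists. No marker counted was at 0 in all sham libraries. The part of these other cells in the members' values was not tested, and in bulk RNA fewer cells of a type and less RNA per cell cannot be told apart.

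After PNX, Cdkn2c (p18) was the member that stood furthest from sham, 3.16-fold higher. Cdkn2d (p19) was at 1.80-fold, Ccnd1 at 1.58-fold and Ccnd3 at 1.37-fold. In these 4 genes every PNX library lay above every sham library. Cdkn2b (p15) and Cdkn1b (p27) had lower means after PNX, at 0.712 and 0.768 of sham. Cdkn1a, Cdkn1c, Cdkn2a and Ccnd2 gave no call on the 4 samples in any test, although Cdkn2a was at 1.49-fold, with overlapping libraries. No member had all PNX libraries below all sham libraries. Over all 16598 genes tested, 18.6% had the 3 PNX libraries above the 3 sham libraries and 18.0% had them below, against 4 and 0 of the 10 members.

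These differences were tested in 2 ways with edgeR's quasi-likelihood test over all genes. The main test had no term for the record, and the other was an alternative to it. Without a term for the record, no member and no gene was called at the study's thresholds (an adjusted p under 0.01 with a log2 fold change beyond 1 in either direction), and none at an adjusted p under 0.05 at any fold, both 0% of genes. At an unadjusted p under 0.05 there were 2076 genes, 4 of them members (Cdkn2c, Cdkn2d, Ccnd1 and Ccnd3), while DESeq2 called 572 genes with 1 member (Cdkn2c) and limma-voom called 0. The second test paired the samples by record, re-used or not, as a replicate block. Sham and PNX samples of the same record deviated together, with a Pearson's r of 0.791 over 11659 genes.

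With the replicate block, Cdkn2c was called at the study's thresholds, 1 of the 10 members, against 3.89% of all genes called higher and 1.23% called lower. At an adjusted p under 0.05 at any fold, Cdkn2c, Cdkn2d, Ccnd1 and Ccnd3 rose and Cdkn1b and Cdkn2b fell, against 11.5% of all genes higher and 10.1% lower. Below, rose and fell refer to this second threshold in the blocked test, the alternative, while the main test called no gene. The median log2 fold change of the 10 members in the blocked test was 0.31, beside −0.01 over all genes tested. The block leaves 1 residual degree of freedom, and where nothing says that the libraries of a record came from separate operations, the p-values measure only the spread between these samples.

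**Figure D1:**
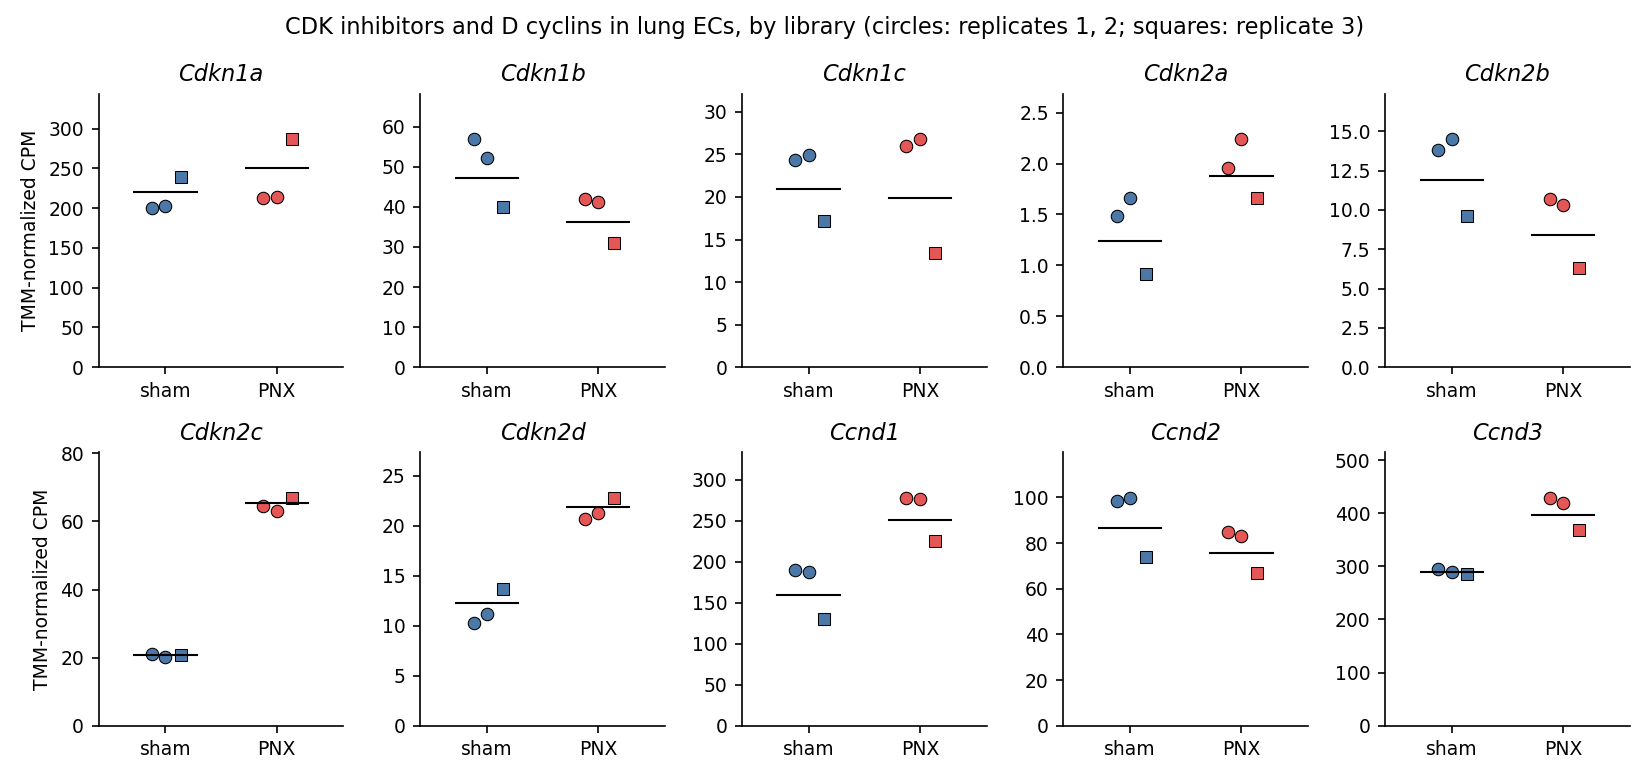
TMM-normalized CPM of each of the 10 genes (y axis, from 0, a scale of its own in each panel) in the 3 sham and 3 PNX libraries, with circles for the near-identical replicates 1 and 2, squares for replicate 3 and a line at the mean of the 2 samples. The groups lie apart in Cdkn2c, Cdkn2d, Ccnd1 and Ccnd3. In Cdkn1b, Cdkn1c, Cdkn2a, Cdkn2b, Ccnd1, Ccnd2 and Ccnd3 the square lies below the circles in both groups.

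Among the INK4 inhibitors, Cdkn2c (mouse chr4:109660876-109667189, minus strand, GRCm38) encodes p18. Its CPM was 21.1, 20.3 and 20.7 in sham libraries 1, 2 and 3 and 64.5, 63.0 and 67.0 in PNX libraries 1, 2 and 3. The groups were far apart, and the libraries of a group differed by little. The mean was 20.8 ± 0.013 CPM in sham and 65.6 ± 2.20 in PNX (SD, n = 2 each). The log2 fold change was 1.66 with a standard error of 0.13 and an adjusted p of 0.0720 without the block, and 1.66 with 0.09 and 3.00e-05 with it. The gene ranked 12th of all genes by p without the block and 97th with it.

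Cdkn2c is annotated with 2 transcripts that share their last exon, and the difference between sham and PNX was not the same for both. The 3-exon transcript NM_001301368 starts in a first exon of its own, which the GENCODE annotation places at chr4:109665610-109667189. The upstream RefSeq start site of the gene, at position 109666756, lies inside that exon, so the 2 sources differ on where it begins. The 2-exon transcript NM_007671 starts further along the gene, in an exon at chr4:109665018-109665372 that contains exon 2 of the longer form (chr4:109665018-109665157). Its start is where the promoter window printed above ends.

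The 3-exon transcript had 902, 780 and 378 counts in the sham libraries and 2898, 2508 and 1174 in the PNX libraries. The 2-exon transcript had 782, 658 and 327 counts in sham and 1946, 1656 and 808 in PNX. The ratio of 3-exon to 2-exon counts was 1.15, 1.19 and 1.16 in sham and 1.49, 1.51 and 1.45 in PNX, without overlap between the groups. In a fit over 24603 single transcripts, the log2 fold change with the replicate block was 1.82 with a standard error of 0.07 for the 3-exon transcript (adjusted p = 2.77e-04) and 1.47 with 0.08 for the 2-exon transcript (adjusted p = 5.45e-04). Without the block the adjusted p was 0.0886 for both.

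The transcripts overlap in the last exon and in exon 2 of the longer form. The rule by which reads in the overlap were counted is not given in the sources used here. If each read was counted on every transcript it matched, the excess of the 3-exon over the 2-exon count is the least number of reads that fell on the longer form alone. That excess was 120, 122 and 51 counts in sham and 952, 852 and 366 in PNX. In CPM it was 1.50, 1.72 and 1.50 in sham and 12.7, 12.9 and 12.4 in PNX. A ratio of these excesses is no fold change of the longer form, since each is a least number. By its whole count the 3-exon transcript was 3.43-fold higher after PNX in the re-used record and 3.57-fold in the other, against 2.67-fold and 2.84-fold for the 2-exon transcript. The relation between the transcripts was looked at after their values were seen, and the difference between them was not tested. Among the other members with several transcripts, the transcripts of Cdkn1a, Cdkn1c and Ccnd3 differed by at most 1.01-fold in any library, and those of Cdkn2a by up to 1.38-fold.

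**Figure D2:**
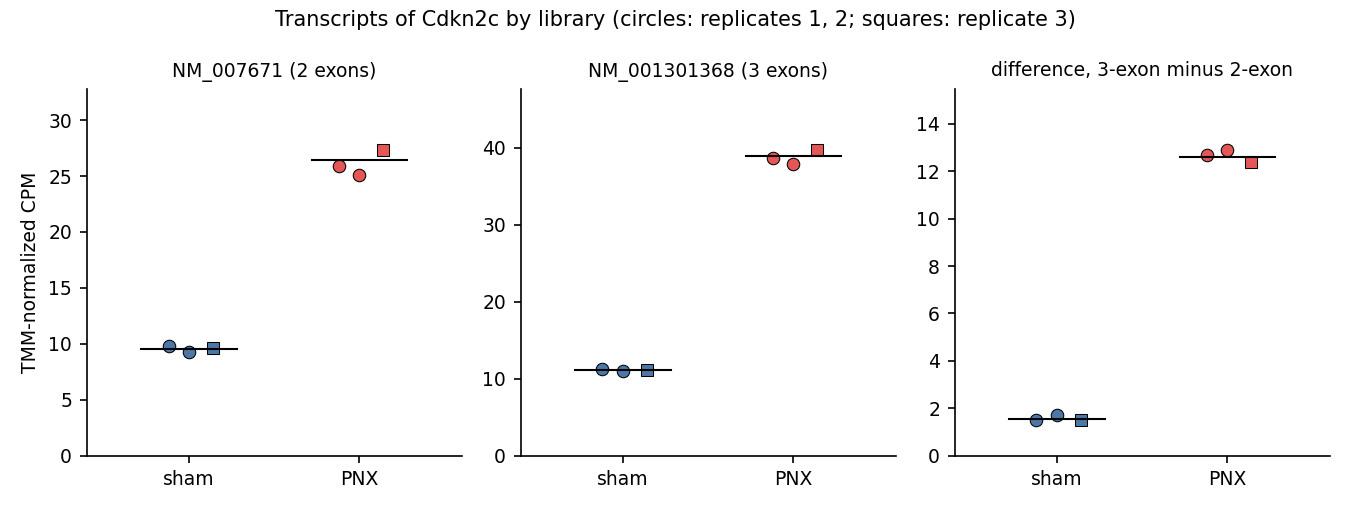
TMM-normalized CPM (y axis, from 0) of the 2-exon transcript of Cdkn2c, of the 3-exon transcript and of the 3-exon minus the 2-exon transcript, in each sham and PNX library, with circles for replicates 1 and 2, squares for replicate 3 and a line at the mean of the 2 samples. The excess sits at 1.50 to 1.72 CPM in sham and at 12.4 to 12.9 CPM in PNX.

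Cdkn2d, which encodes the INK4 protein p19 (chr9:21288410-21291407, minus strand), was the other INK4 gene that rose. Its CPM was 10.3, 11.2 and 13.7 in sham libraries 1, 2 and 3 and 20.7, 21.3 and 22.8 in the PNX libraries. The lowest PNX library was above the highest sham library, and replicate 3 was highest in both groups. With edgeR the log2 fold change was 0.86 with a standard error of 0.11 and an adjusted p of 0.00191 with the replicate block, and 0.84 with 0.19 and 0.180 without it. The ratio of PNX to sham was 1.96 (95% exact interval 1.85 to 2.09, which covers counting error only, as do those below) in the re-used record and 1.66 (1.47 to 1.87) in the other.

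Cdkn2b fell. It encodes p15, the INK4 protein that is induced by TGF-beta in many cell types (chr4:89306299-89311039, minus strand). Its CPM was 13.8, 14.5 and 9.61 in sham libraries 1, 2 and 3 and 10.7, 10.3 and 6.29 in PNX libraries 1, 2 and 3. Each PNX library was below the sham library of the same number, but PNX libraries 1 and 2 were above sham library 3, so the groups overlapped. The ratio of PNX to sham was 0.747 (0.699 to 0.799) in the re-used record and 0.655 (0.544 to 0.786) in the other. It had a log2 fold change of −0.50 with a standard error of 0.12 and an adjusted p of 0.0252 with the replicate block. Without the block it was −0.49 with 0.34 and 0.658, and DESeq2 with the block gave an adjusted p of 0.0874. Without the block the value depended on the replicate 3 libraries, at −0.17 when PNX replicate 3 was left out and −0.72 when sham replicate 3 was.

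Cdkn2a, next to Cdkn2b on the same strand (chr4:89274471-89294653), encodes p16 and, from the upstream start and another reading frame, p19Arf, which stabilises p53 and is no INK4 protein. It was the least abundant member, at 1.48, 1.66 and 0.911 CPM in sham and 1.96, 2.24 and 1.66 in PNX. Sham library 2 and PNX library 3 were level at 1.66, so the groups were not apart. The fitted log2 fold change was 0.58 with a standard error of 0.24 and an adjusted p of 0.130 with the replicate block, and 0.58 with 0.38 and 0.642 without it. The counts behind the p19Arf transcript NM_009877 were 63, 62 and 18 in sham and 78, 79 and 28 in PNX, and those behind the p16 transcript NM_001040654 were 55, 56 and 13 and 69, 69 and 21. The positions of the 2 transcripts overlap, and how reads in an overlap were counted is not given. Neither set of counts can therefore be assigned to p19Arf or to p16 alone. By the whole count of the p19Arf transcript, the ratio of PNX to sham was 1.34 (1.05 to 1.71) in the re-used record. In the record with the fewer counts it was 1.79, with an exact interval of 0.956 to 3.44. A difference of that size was not detectable at this depth in that record alone.

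Of the CIP/KIP inhibitors, Cdkn1b fell, and Cdkn1a and Cdkn1c did not pass the test in either direction. Cdkn1b encodes p27, which holds resting cells in G1 (chr6:134920401-134925513, plus strand). Its CPM was 56.9, 52.1 and 39.9 in sham libraries 1, 2 and 3 and 41.9, 41.1 and 31.0 in PNX. Both records had about the same ratio of PNX to sham, 0.762 (0.737 to 0.788) and 0.776 (0.713 to 0.844), while sham library 3 was below PNX libraries 1 and 2. The log2 fold change was −0.38 with a standard error of 0.08 and an adjusted p of 0.0178 with the replicate block, and −0.38 with 0.24 and 0.614 without it. Without the block it was −0.18 when PNX replicate 3 was left out and −0.57 when sham replicate 3 was.

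Cdkn1a encodes p21, the main p53 target among the inhibitors (chr17:29090976-29100727, plus strand). Its CPM was 200.4, 202.7 and 239.5 in sham and 212.3, 213.9 and 287.0 in PNX. Replicate 3 was the highest in both groups, and sham library 3 was above PNX libraries 1 and 2. With edgeR the log2 fold change was 0.17 with a standard error of 0.09 and an adjusted p of 0.234 with the replicate block, and 0.18 with 0.21 and 0.805 without it. Without PNX replicate 3 it was −0.046.

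Cdkn1c encodes p57, an imprinted gene expressed from the maternal allele (chr7:143458339-143461050, minus strand). Its CPM was 24.4, 24.9 and 17.2 in sham libraries 1, 2 and 3 and 26.0, 26.8 and 13.4 in the PNX libraries. PNX was above sham in replicates 1 and 2 and below it in replicate 3, with ratios of 1.07 (1.00 to 1.14) in the re-used record and 0.778 (0.646 to 0.935) in the other. It had a log2 fold change of −0.11 with a standard error of 0.13 and an adjusted p of 0.584 with the replicate block, and −0.07 with 0.38 and 0.974 without it. Its sign was positive without PNX replicate 3, at 0.33. An antisense gene, Gm44732, is annotated across Cdkn1c. The libraries were stranded, but whether the counting used strand is not given in the sources used here, so reads of the antisense gene cannot be told apart.

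Of the D cyclins, Ccnd1 and Ccnd3 rose, and Ccnd2 did not pass the test. Cyclin D1 is the D cyclin that responds most directly to growth factor signals in many cells (Ccnd1, chr7:144929931-144939925, minus strand). Its CPM was 190.0, 187.4 and 130.2 in sham libraries 1, 2 and 3 and 278.0, 276.2 and 225.2 in PNX. All PNX libraries were above all sham libraries, and replicate 3 was the lowest in both groups. The ratio of PNX to sham was 1.47 (1.45 to 1.49) in the re-used record and 1.73 (1.67 to 1.80) in the other. The fitted log2 fold change was 0.67 with a standard error of 0.10 and an adjusted p of 0.00341 with the replicate block, and 0.66 with 0.24 and 0.372 without it. Without the block it was 0.43 when sham replicate 3 was left out.

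Ccnd3 encodes cyclin D3 (chr17:47505051-47599691, plus strand). Its counts, summed over 3 transcripts with nearly equal counts, gave 295.9, 290.3 and 285.5 CPM in sham and 429.5, 420.0 and 369.3 in PNX. The sham libraries were within a narrow range, and the lowest PNX library was well above them. The log2 fold change was 0.45 with a standard error of 0.10 and an adjusted p of 0.0165 with the replicate block, and 0.46 with 0.15 and 0.327 without it. The ratio of PNX to sham, from 1 transcript, was 1.45 (1.42 to 1.48) and 1.29 (1.23 to 1.35) in the 2 records. The gene Bysl on the opposite strand overlaps Ccnd3, and its own log2 fold change with the block was 0.37, with 34.4 to 35.0 CPM in sham and 43.7 to 46.5 in PNX. The overlap makes the value of Ccnd3 uncertain to the extent that counting ignored strand.

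Ccnd2 encodes cyclin D2 (chr6:127125162-127152193, minus strand). Its CPM was 98.5, 99.9 and 73.7 in sham libraries 1, 2 and 3 and 84.9, 83.1 and 66.9 in PNX. PNX was below sham within each record, with ratios of 0.848 (0.827 to 0.868) and 0.909 (0.856 to 0.964), but sham library 3 lay below PNX libraries 1 and 2. With edgeR the log2 fold change was −0.19 with a standard error of 0.08 and an adjusted p of 0.141 with the replicate block, and −0.19 with 0.21 and 0.797 without it. Annotated genes on the opposite strand also overlap Ccnd2 (Gm43126 and 9330179D12Rik) and Ccnd1 (LTO1), and a gene of unsettled type, AC167363.2, overlaps Cdkn1a. No annotated gene overlaps Cdkn1b, Cdkn2a, Cdkn2b, Cdkn2c or Cdkn2d.

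**Figure D3:**
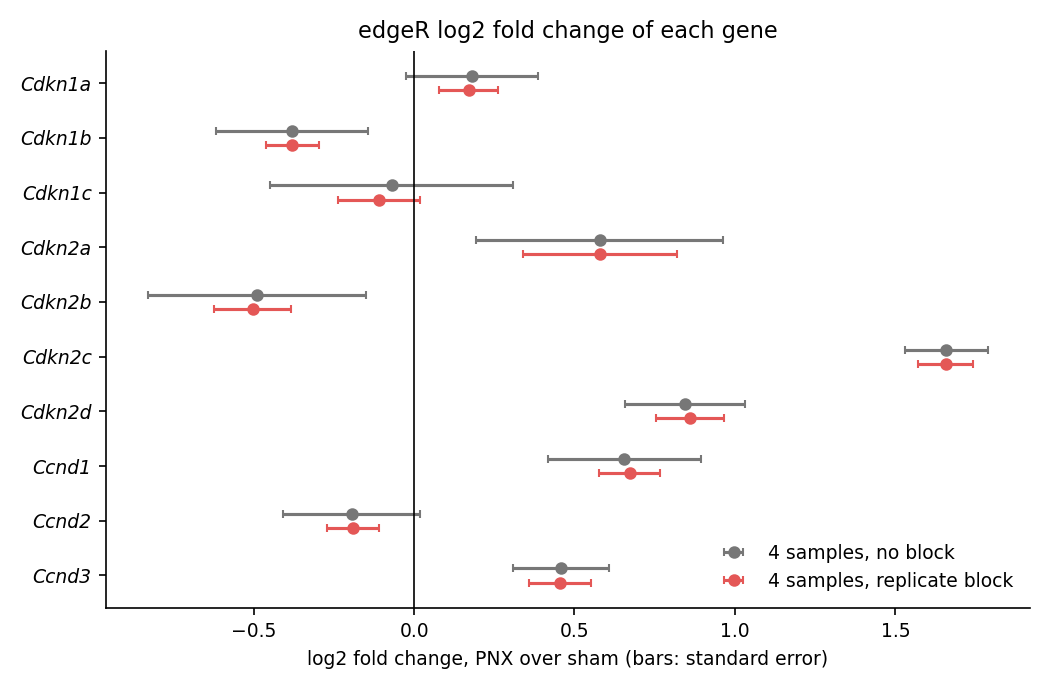
Log2 fold change of PNX over sham (x axis) of each gene from edgeR on 4 samples, without the replicate block (grey) and with it (red), with bars for the standard error. The estimates of the 2 fits lie close together, and the bars are narrower with the block, as for Cdkn2b at 0.34 and 0.12.

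The members were compared with each other by the deposited TPM, which is per length, of the transcript with the highest count of each gene. In sham the order of mean TPM was Cdkn1a (145.5), Ccnd3 (115.0), Ccnd1 (105.5), Cdkn1b (49.3), Ccnd2 (37.6), Cdkn2d (24.2), Cdkn2b (21.4), Cdkn2c (13.7), Cdkn1c (13.5) and Cdkn2a (1.84). The library ranges of Ccnd3 and Ccnd1, of Cdkn1b and Ccnd2, of Cdkn2d and Cdkn2b and of Cdkn2c and Cdkn1c overlapped, so these neighbours were not apart in sham.

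In PNX the order was Ccnd1 (165.7), Cdkn1a (164.2), Ccnd3 (157.0), Cdkn2c (47.9), Cdkn2d (43.1), Cdkn1b (37.8), Ccnd2 (32.7), Cdkn2b (15.1), Cdkn1c (12.8) and Cdkn2a (2.78). Cdkn2c thus stood 8th of 10 in sham and 4th in PNX, where its libraries (46.4 to 49.0 TPM) were above those of Cdkn2d (40.7 to 45.1). The rank in sham depended on the choice of transcript. A second order, with all transcripts of a gene summed, was looked at later. In it Cdkn2c stood 6th in sham at 35.5 TPM and 4th in PNX at 107.8. Ccnd3 was first in both groups at 353.8 and 483.9. That sum can enter a shared read more than once. This would raise genes with several transcripts, such as Ccnd3 with 3 of nearly equal count, against genes with 1. In PNX the library ranges of Ccnd1 and Cdkn1a, of Cdkn1a and Ccnd3, of Cdkn2d and Cdkn1b, of Cdkn1b and Ccnd2 and of Cdkn2b and Cdkn1c overlapped.

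Within the INK4 genes the make-up differed between the groups, by the same 1 transcript per gene and with Cdkn2a given by its p19Arf transcript. Cdkn2c held 22.7%, 21.1% and 23.0% of the INK4 TPM in sham libraries 1, 2 and 3 and 43.0%, 42.2% and 45.4% in PNX. Cdkn2b held 40.7%, 40.7% and 29.1% in sham and 17.5%, 16.8% and 10.5% in PNX. The groups were apart for both genes, with Cdkn2b ahead of Cdkn2c in every sham library and behind it in every PNX library. Cdkn2d held 39.7% ± 8.32 in sham and 39.6% ± 3.01 in PNX (SD, n = 2 each). The summed TPM of the 4 genes was 61.1 ± 1.96 in sham and 109.0 ± 1.45 in PNX, and that of the 3 CIP/KIP genes 208.3 ± 4.22 and 214.8 ± 21.7. With all transcripts summed, which can count a shared read of Cdkn2c more than once, Cdkn2c was ahead of Cdkn2b in sham as well, at 42.0% ± 1.47 against 25.2% ± 5.99, and in PNX at 62.9% ± 2.30 against 8.83% ± 3.17. These shares were looked at after the members' values were seen.

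Among the D cyclins, Ccnd2 took a smaller share of the summed TPM after PNX. With all transcripts of a gene summed it held 8.09%, 8.33% and 6.86% in sham libraries and 4.95%, 4.94% and 4.63% in PNX libraries, so the groups were apart. Ccnd1 held 23.7%, 23.7% and 18.4% in sham and 24.7%, 25.0% and 23.7% in PNX, and Ccnd3 71.4% ± 4.69 and 71.0% ± 1.03 (SD, n = 2 each). This sum can enter a read shared by the 3 Ccnd3 transcripts more than once, which would overstate the share of Ccnd3 in both groups. With 1 transcript per gene, Ccnd2 held 14.5% ± 0.936 in sham and 9.19% ± 0.302 in PNX, Ccnd1 40.5% ± 4.72 and 46.6% ± 0.891, and Ccnd3 44.9% ± 5.65 and 44.2% ± 1.19. The summed TPM of 1 transcript per D cyclin was 258.1 ± 36.7 in sham and 355.5 ± 43.5 in PNX. A 2-sided exact permutation test over 2 samples a group cannot give a p below 0.333, which was its value for Ccnd2.

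**Figure D4:**
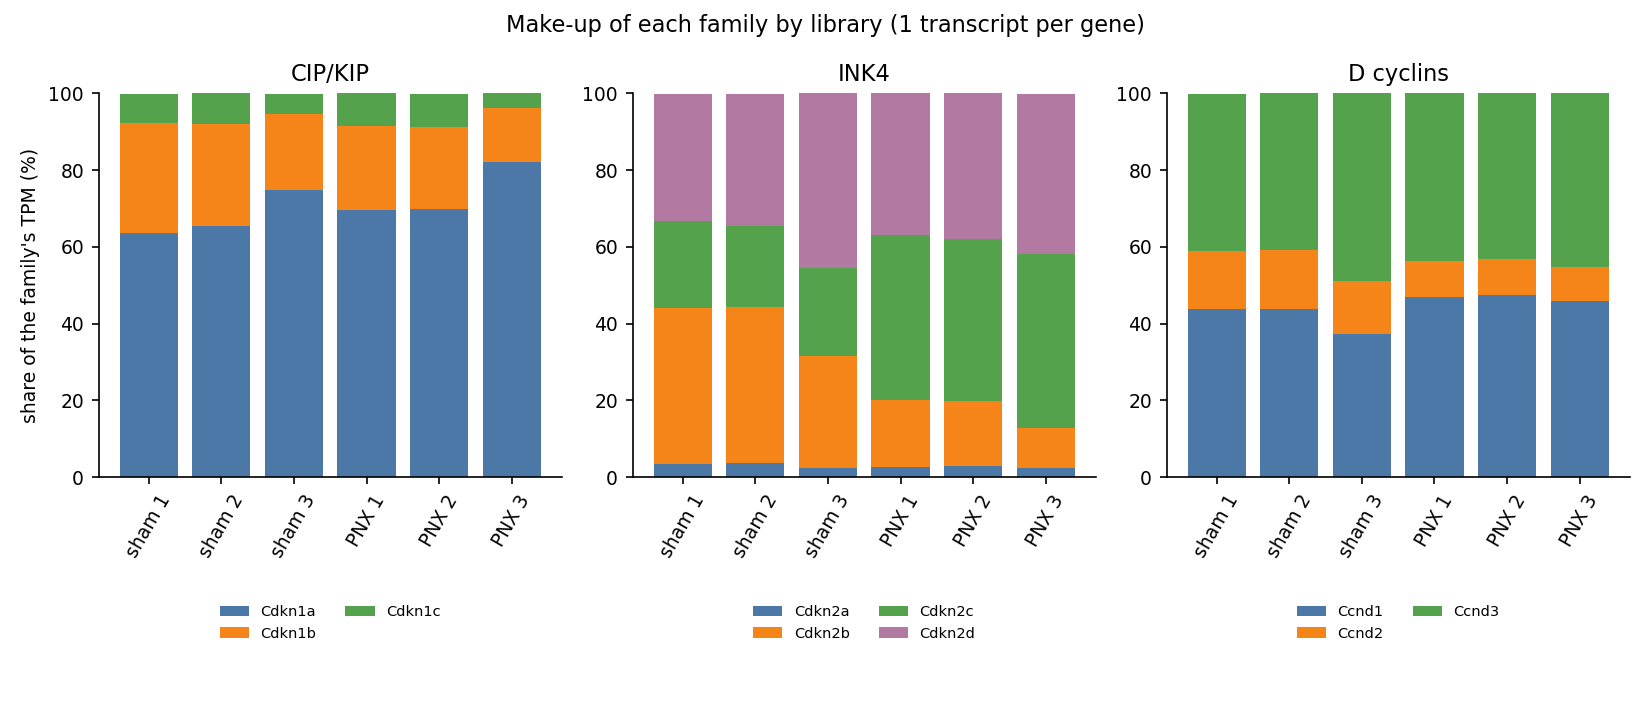
Share of each gene in its family's TPM (y axis, percent) in each library, from 1 transcript per gene, for the CIP/KIP inhibitors, the INK4 inhibitors (Cdkn2a by its p19Arf transcript) and the D cyclins. The Cdkn2c share is 21.1% to 23.0% in sham and 42.2% to 45.4% in PNX, and the Cdkn2b share 29.1% to 40.7% in sham and 10.5% to 17.5% in PNX.

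The genes that D cyclins and their inhibitors act on were read from the same fits. Their lists were written from known roles, with earlier results of these data known. Of the CDK partners of D cyclins, Cdk4 rose, with a log2 fold change of 0.62 (adjusted p = 0.00379 with the replicate block, 0.174 without it) and 46.8 to 52.4 CPM in sham against 73.5 to 78.2 in PNX. Cdk6 was at −0.13 (adjusted p = 0.476 with the block), with 8.28 to 10.8 CPM in sham and 7.28 to 10.2 in PNX. Over all genes tested, 11.5% rose and 10.1% fell. Among the 3 Rb pocket proteins, 1 rose and none fell. It was Rbl1 (p107), itself a gene that dividing cells switch on, at 0.73 (adjusted p = 0.00360). Rb1 was at −0.19 (adjusted p = 0.138) and Rbl2 (p130), the pocket protein of resting cells, at −0.23 (adjusted p = 0.0812).

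All 7 later cyclins and CDKs rose in the blocked test at any fold, and 6 of them passed the study's thresholds, with a median log2 fold change of 2.52. Over all genes tested, 11.5% rose and 3.89% were called higher at the study's thresholds. Cdk1, the mitotic kinase, was at 3.26 (adjusted p = 1.32e-05), with 3.26 to 5.32 CPM in sham and 33.3 to 45.5 in PNX. The E cyclins, which activate CDK2 and are held by p21 and p27, were at 2.34 for Ccne1 (1.00 to 1.67 CPM in sham and 4.96 to 9.13 in PNX) and 1.23 for Ccne2 (16.2 to 20.2 and 40.4 to 44.5). Cdk2 had the smallest difference of the list, at 0.66 (adjusted p = 0.00294). Without the block none of the 7 was called, with adjusted p-values of 0.0720 for Cdk1 and 0.133 for Ccne1.

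All 10 markers of dividing cells, of which 2 (Ccnb1 and Cdk1) are also in the previous list, rose with the block, and 9 passed the study's thresholds. The shares over all genes were the same 11.5% and 3.89%. Mki67 was at 2.81 (adjusted p = 1.22e-05), with 16.5 to 32.3 CPM in sham and 123.7 to 216.3 in PNX. Pcna, a replication gene, was at 0.71 (adjusted p = 0.00118), close to the values of Ccnd1 and Cdkn2d. Replicate 3 had the highest Mki67 in both groups. Ccnd1 was lowest in replicate 3 of both groups, and Cdkn2c had no such order. Replicate 3 was a single library in each group, and how these orders relate was not tested.

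Of 7 genes that act in the turnover of p27 and of D cyclins, 2 rose and 1 fell, beside 11.5% and 10.1% of all genes. Skp2, the F-box protein that marks p27 for destruction, rose by 1.39 on the log2 scale (adjusted p = 0.00233), with 4.90 and 3.97 CPM in the 2 sham samples and 10.4 and 13.7 in the PNX samples, and its cofactor Cks1b by 2.05 (adjusted p = 1.16e-04). Fbxo31, an F-box protein that directs cyclin D1 to destruction after DNA damage, was at −0.37 (adjusted p = 0.0429). The other 4 were between −0.09 and 0.11.

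Of Trp53 and 14 of its targets, 3 rose and 1 fell with the block, beside 11.5% and 10.1% of all genes. None passed the study's thresholds, and the median log2 fold change was 0.13. Trp53 was at 0.31 (adjusted p = 0.0399) and Eda2r had the largest value, 0.65 (adjusted p = 0.0463). Trp53inp1 was lowest at −0.46 (adjusted p = 0.00961), and Mdm2, the ligase that p53 induces against itself, was at −0.06 (adjusted p = 0.673). Of the FOXO factors, which switch on Cdkn1b and hold Ccnd1 and Ccnd2 low in some cells, 2 of 3 fell, Foxo1 and Foxo4. Foxo4 was at −0.43 (adjusted p = 0.0139) and Foxo3 at −0.29 (adjusted p = 0.0950).

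**Figure D5:**
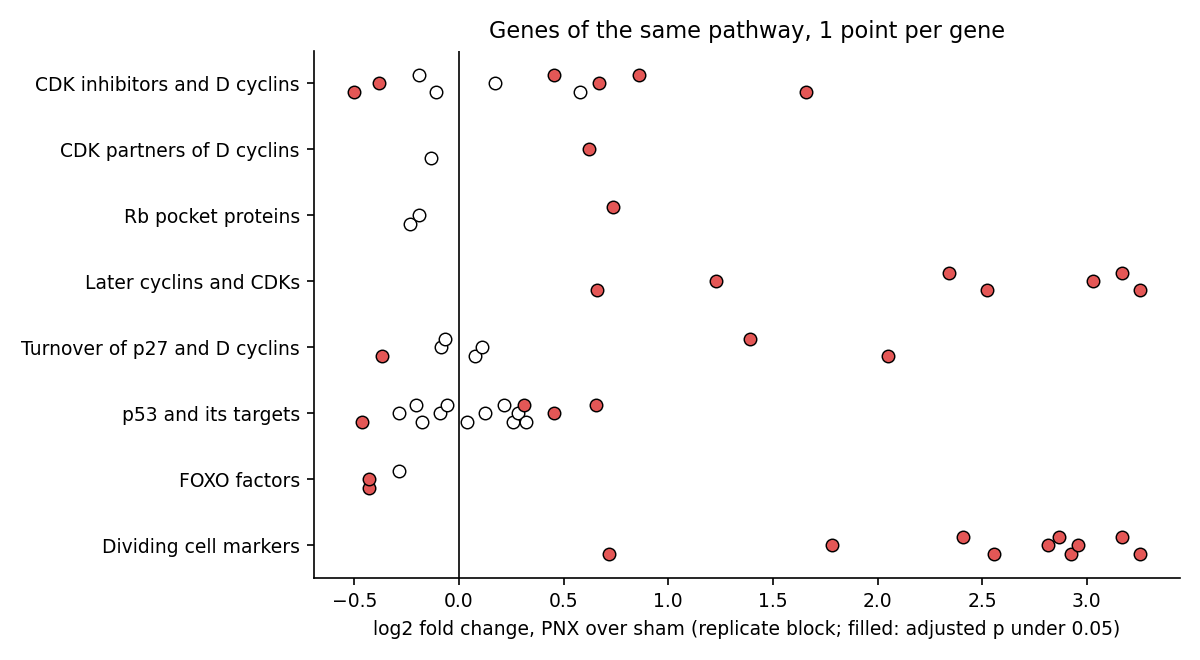
Log2 fold change of PNX over sham with the replicate block (x axis), 1 point per gene, for the 10 CDK inhibitors and D cyclins and for the lists of related genes, with points filled where the adjusted p is under 0.05. The members lie between −0.50 and 1.66, and the later cyclins and CDKs between 0.66 and 3.26.

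The marker lists named at the outset were read from the same fits. With the block at an adjusted p under 0.05, 5 of 6 fibroblast markers rose and 1 fell, 6 of 7 macrophage markers, 5 of 6 mesothelial and 4 of 4 mast cell markers rose, and 5 of 5 alveolar type 2, 3 of 3 club cell, 4 of 5 T cell and 4 of 4 B cell markers fell. Of the 8 endothelial markers 1, Tek, fell, and of 5 smooth muscle and pericyte markers none passed. Over all genes tested, 11.5% rose and 10.1% fell. The cells in which Cdkn2c, the D cyclins or the other members were expressed cannot be told apart in these libraries.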

How the data were processed

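Bulk RNAseq of CD31 bead-isolated C57BL6 mouse lung ECs was analysed from the processed files, with 3 sham and 3 PNX 7-day libraries, grouped by the sample labels. The authors made stranded paired-end libraries and aligned the reads to mm10 (GRCm38), for which the submitters' notes name STAR without a version. They deposited a whole-number count, an FPKM value and a TPM value for each of 33068 RefSeq transcripts. How reads were counted is not given in the sources used here. Deposited FPKM values served only as an alternative for the shares of the D cyclins, and the deposited TPM values only for levels between genes.

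Counts of a symbol were summed. Where transcripts of a gene share reads, the sum exceeds the number of fragments, so exact intervals (Clopper-Pearson, 95%) used 1 transcript per gene. Replicates 1 and 2, near-identical by chi-square, were summed before the test, which left 4 samples. The test was edgeR's quasi-likelihood test (version 4.0.16, R 4.3.3) with TMM scaling, filterByExpr and Benjamini-Hochberg adjustment over 16598 genes. Standard errors are approximate, the log2 fold change over the root of its F statistic. The samples were paired by the record tag in the labels (re-used or not), although the labels themselves name no pairs. The difference between the records correlated between sham and PNX over 11659 genes above 5 CPM (Pearson's r = 0.791, Spearman's rho = 0.785). The replicate block is that record. Alternatives were DESeq2 1.42.0, limma 3.58.1 (voom), other scalings and filters, 1 transcript per gene, the 6 libraries as separate replicates and leaving out each library.

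The members, gene lists and tests were chosen with earlier results of these data known. All 10 members are named, and of each list of related genes the largest and smallest log2 fold change without the block, plus Cdk4, Cdk6, Rb1, Rbl1, Ccne1, Ccne2, Trp53, Mdm2, Skp2 and Mki67. Foxo1, Tek, Bysl, Ccnb1 and the promoter windows shown were chosen after their values were seen. Positions are from GENCODE vM21 on GRCm38, promoter sequences from RefSeq on GRCm38.p6. Adgre1 and Trac, of the marker lists, were not counted here.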

Additional observations from a re-analysis of the deposited data

Results flagged for a closer look

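Cdkn1c (p57) moved in opposite directions in the 2 records. In the re-used libraries the log2 ratio of PNX to sham was 0.0983, and in the libraries that were not re-used it was −0.363. Every other member had the same sign in both. Each record holds 1 summed or single sample per group, so the difference between the records was not tested, and replicate 3 rests on 293 counts in sham and 198 in PNX for 1 transcript of the gene.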

How the results depend on the processing

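Without the replicate block, 0 genes and 0 members were called with edgeR under every other scaling and filter on low counts, with 1 transcript per gene and with limma-voom. When each library was left out in turn the count was 0 to 2 genes, 2 only without PNX replicate 3, and 0 members. With the replicate block, which pairs the samples by record, 849 genes and 1 member (Cdkn2c) were called, and 3584 genes and 6 members at an adjusted p under 0.05 at any fold. The count was 572 genes with DESeq2 and 810 with DESeq2 and the block, and for 6 libraries as separate replicates 409 without and 920 with the block, Cdkn2c being the 1 member called in each. The following alternatives were added after seeing the data, all with the block. The count was 624 genes with DESeq2's size factors, 646 with upper-quartile scaling, 629 by library size alone, 727 with the transcript of the highest total, 671, 668, 485 and 863 without sham replicate 1, sham replicate 2, PNX replicate 1 and PNX replicate 2, and 921 with limma-voom, with Cdkn2c the 1 member called each time. The 645 higher and 204 lower genes of TMM became 540 and 84 with DESeq2's size factors, 548 and 98 with upper-quartile scaling and 550 and 79 by library size alone, and the cause was not tested. Over 28 alternatives the log2 fold change of Cdkn2c was 1.63 to 1.81.

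In the 9 edgeR fits of the 4 samples with the block, Ccnd1, Ccnd3, Cdkn1b, Cdkn2b, Cdkn2c and Cdkn2d kept an adjusted p under 0.05. DESeq2 with the block lost Cdkn2b (0.0874), and 6 libraries with the block added Cdkn1a (0.0435), Cdkn2a (0.0350) and Ccnd2 (0.0120). Signs reversed for Cdkn1c, to 0.0095 with 6 libraries and no block and to 0.33 without PNX replicate 3 (−0.29 to 0.33 over the libraries left out), and for Cdkn1a, to −0.046 without PNX replicate 3 (−0.046 to 0.32). With the transcript of the highest total, the change in share was 6.02 percentage points for Ccnd1 and −5.32 for Ccnd2, against 3.16 and −2.75 with all transcripts summed. Without sham replicate 3 it was 0.52 for Ccnd1 and 2.90 for Ccnd3, against −0.41 for Ccnd3 with all libraries. Without replicate 3 of a group no pair is left in that record, so no block could be fitted. Low counts limit Cdkn2a most among the members.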
